A study of Homo sapiens with 15 samples.

Results

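Genes used as markers of prostate secretory epithelium and of prostate tumours, ACP3, MSMB, FOLH1, STEAP1, STEAP2, TRPM8, SLC45A3, FKBP5, AMACR and PMEPA1, were described in RNA-seq libraries of C4-2B cells. They were chosen by name, as 10 of the 58302 genes in the count tables, with no threshold on a measured value, although earlier results of these data were known when the list was drawn up. C4-2B is an established human prostate adenocarcinoma line of the LNCaP lineage, grown in RPMI with serum and labelled as wild type in genotype, with no drug or siRNA named in its labels, and in the study it is the parent of a line made by long exposure to enzalutamide. The series labels 15 libraries in 5 groups of 3 (C4-2B, DKD_scr, DKD_siPax5, ER_scr and ER_SiPax5), and the libraries of the first group were used, while the other 12 were not analysed here. The values below are therefore levels within 1 line under 1 condition, with no comparison between groups. The study's methods describe its experiments in general as independent replicates and this RNA-seq as done in triplicate. Neither they nor the labels say that the 3 libraries came from separate cultures, so part of the spread between them may be technical.

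The luminal cells of the prostate gland make and release the proteins of the seminal fluid, and many of their lineage genes respond to androgen. Tumours that keep this programme keep much of this gene set, and several of its products are used in the clinic as serum markers, tissue stains or targets for imaging and therapy. By role, ACP3 and MSMB encode secreted proteins, FOLH1, STEAP1, STEAP2, TRPM8 and SLC45A3 encode proteins that span the membrane, FKBP5 and PMEPA1 are androgen-response genes whose products act inside the cell or in its membranes, and AMACR encodes an enzyme of peroxisomes and mitochondria.

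The 3 libraries held 44992971, 49569026 and 46232076 counts in genes. Levels are given as TPM, which divides a gene's count by its exon length. The result is scaled so that all genes of a library share 1 fixed total. The exon length joins the exons of all annotated transcripts of a gene, so ratios between genes depend partly on annotation. The epithelial identity was checked by fixed markers. The luminal markers KRT8, KRT18, KLK3, KLK2 and TMPRSS2 summed to between 2947 and 2977 TPM in the 3 libraries. The basal markers (KRT5, KRT14, KRT15) summed to between 1.01 and 1.13 TPM, with KRT5 at 1 count in all. The neuroendocrine markers (CHGA, SYP, SNAP25, CHRNB2) summed to between 3.59 and 4.20 TPM. Of these, CHGA, SYP and CHRNB2 were each at or above 1 TPM in all 3 libraries, with means of 1.38, 1.31 and 1.11 TPM. SNAP25 had 3 counts. The leukocyte markers and the endothelial markers each summed to below 0.1 TPM in every library. Of the fibroblast markers COL1A1 was at 7.09 ± 0.581 TPM (SD, n = 3) while COL1A2 and DCN had 0 counts.

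All 10 genes were expressed, by the mark of at least 1 TPM in all 3 libraries, which 32.8% of all genes and 61.2% of protein-coding genes reached. Their levels fell into 2 ranges. FOLH1, SLC45A3, STEAP1, STEAP2, PMEPA1 and FKBP5 lay between 162 and 397 TPM in the mean, and TRPM8, MSMB, AMACR and ACP3 between 5.25 and 20.8 TPM. The step between FKBP5 and TRPM8 was 7.75-fold. In bulk RNA, fewer cells that express a gene and less RNA per cell cannot be told apart. A mean of 100 TPM, a mark set after the values were seen, was reached by 6 of the 10 genes and by 6.37% of protein-coding genes. The median of the 10 genes was 179 TPM, beside 5.88 TPM for protein-coding genes and 0.171 TPM for all genes.

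**Figure D1:**
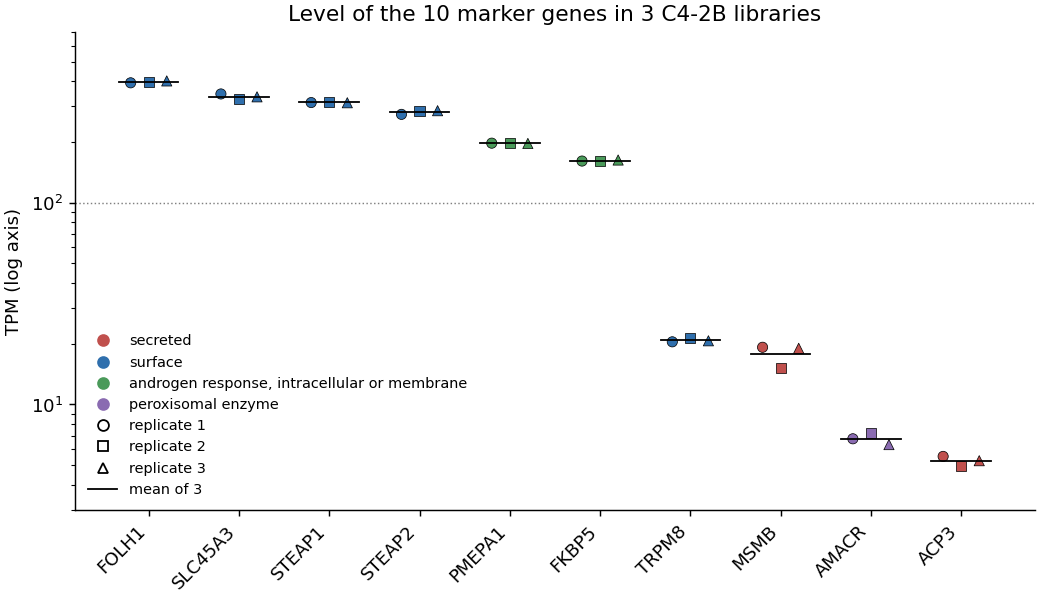
Level of the 10 genes in each C4-2B library, in TPM on a log axis, ordered by the mean. Points are the 3 replicates, colours give the role of the protein, horizontal lines are means and the dotted line marks 100 TPM. FOLH1, SLC45A3, STEAP1, STEAP2, PMEPA1 and FKBP5 sit above the dotted line and TRPM8, MSMB, AMACR and ACP3 sit below 22 TPM.

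A limit on these levels lies in the sequences themselves, because reads that align to several places were not counted. FOLH1 and STEAP1 each have a near-identical copy. The 19 coding exons of FOLH1 hold 2250 bases, and 18 of them, 2132 bases in all, align to the locus of its pseudogene FOLH1B on the same chromosome, with 27 differing bases, which is 98.7% identity. In 4 of these exons there is no difference. Exon 2 of FOLH1 (chr11:49206067-49206172, minus strand, GRCh38) is the longest identical one. Its 106 bases, shown once because the copy at chr11:89639237-89639342 (plus strand) reads the same, are:
FOLH1 exon 2: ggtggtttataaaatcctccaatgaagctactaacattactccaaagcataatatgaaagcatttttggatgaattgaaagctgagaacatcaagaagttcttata
Exon 18 (chr11:49148639-49148731) has the lowest identity, 96.8%, with its copy at chr11:89696633-89696725. It is shown to give the scale of the differences, with the 3 differing bases in capitals:
FOLH1 exon 18: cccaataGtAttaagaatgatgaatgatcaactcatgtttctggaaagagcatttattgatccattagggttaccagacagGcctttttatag
FOLH1B copy: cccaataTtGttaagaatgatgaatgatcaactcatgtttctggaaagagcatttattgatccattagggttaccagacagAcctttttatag

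In STEAP1, 3 of the 4 coding exons align to STEAP1B on the opposite arm of chromosome 7, over 762 of 1017 coding bases, with 14 differing bases and 98.2% identity. The last coding exon of 255 bases has no counterpart there. Exon 4 (chr7:90161914-90162078, plus strand) and its copy (chr7:22492565-22492729, minus strand) are the closest pair, with 1 differing base in capitals among 165:
STEAP1 exon 4: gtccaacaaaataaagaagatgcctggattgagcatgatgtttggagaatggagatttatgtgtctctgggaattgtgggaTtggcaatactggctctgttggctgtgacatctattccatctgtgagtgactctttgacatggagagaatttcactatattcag
STEAP1B copy: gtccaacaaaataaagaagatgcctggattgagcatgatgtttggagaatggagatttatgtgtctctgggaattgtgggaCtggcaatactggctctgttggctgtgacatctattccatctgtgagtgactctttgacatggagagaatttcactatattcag
The pair shows how long a stretch can lie between bases that tell both genes apart. Values of FOLH1 and STEAP1, and of FOLH1B and STEAP1B, are uncertain for this reason.

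Prostatic acid phosphatase, the product of ACP3 (ENSG00000014257), is a classical secreted enzyme of the prostate and was an early serum marker of its tumours. ACP3 lies on chromosome 3 from 132317367 to 132368298 on the plus strand. It had 336, 330 and 326 counts, or 5.53, 4.94 and 5.26 TPM, with a mean of 5.25 ± 0.292 TPM (SD, n = 3). This was the lowest level of the 10 genes, at rank 10060 among 19708 protein-coding genes. The libraries lay close together, replicate 1 highest and replicate 2 lowest. KLK3, which encodes prostate-specific antigen, was at 1988 ± 21.1 TPM (SD, n = 3), and its ratio to ACP3 was 380 ± 22.7 (SD, n = 3).

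Beta-microseminoprotein, encoded by MSMB (ENSG00000263639), is among the most abundant proteins of seminal plasma. The gene lies on chromosome 10 from 46033307 to 46046269 on the minus strand and has only 492 exon bases, the shortest of the 10 genes. Its 137, 119 and 138 counts gave 19.2, 15.2 and 19.0 TPM, with a mean of 17.8 ± 2.26 TPM (SD, n = 3). Replicate 2 was the lowest, and the coefficient of variation of 12.7% was the largest of the 10 genes, beside 12.3% from counting alone when both mates are taken as 1 observation. The exact Poisson interval of its 394 summed counts runs from 356 to 435 at 95%. This interval covers counting error only and is too narrow, since both mates of a pair were counted and PCR copies were not marked. MSMB also had the fewest counts of the 10 genes, at 2.81 ± 0.356 CPM (count scaled to the library total, SD, n = 3), so it stands above ACP3 per length and below it per library count.

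Of the other genes known for secretion by the prostate, 9 of 15 were expressed and the median was 17.4 TPM, so MSMB sat near the middle of that list and ACP3 in its lower part. KLK3 and GDF15, a secreted stress cytokine at 981 ± 25.5 TPM (SD, n = 3), were the highest 2. KLK11 with 7 counts and NPY with 0 counts were the lowest 2, where a count of 0 allows up to 0.0722 TPM for NPY (3 counts over the 3 libraries). This limit, and those given below for other genes with 0 counts, take mates as independent. They are too low, since both mates of a pair were counted. Of the lysosomal and other acid phosphatases, ACP1 was at 45.1 ± 0.775, ACP2 at 33.6 ± 2.90, ACP4 at 23.4 ± 0.850, ACP6 at 8.25 ± 0.197 and ACP5 at 1.93 ± 0.326 TPM (SD, n = 3 each). All but ACP5 were thus above ACP3 in the mean. MSMP, the relative of MSMB, had 0 counts, which allows up to 0.0845 TPM.

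FOLH1 (ENSG00000086205) encodes prostate-specific membrane antigen, a carboxypeptidase on the cell surface that is the target of radioligand imaging and therapy. It lies on chromosome 11 from 49146635 to 49208670 on the minus strand. Its 21790, 24146 and 22691 counts gave 393, 397 and 402 TPM. The mean of 397 ± 4.33 TPM (SD, n = 3) was the highest of the 10 genes, at rank 204 among protein-coding genes and at 19.98% of the KLK3 level. The lowest FOLH1 library was above the highest library of every other member.

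Of the 3824 exon bases of FOLH1, 62.5% start a word of 50 bases that occurs once in the genome. Another 32.1% start one found also within FOLH1B. Words were read along the genome, so those near an exon end run into the intron and not into the next exon. These shares are thus not those of spliced reads. If no read from the repeated words had been counted, the level over the remaining 2390 bases would be 635 ± 6.93 TPM (SD, n = 3), or 1.6 times the value above. The level thus depends on how many such reads were kept, which the count tables do not show, since a longer read or its mate can reach a base that tells both loci apart. FOLH1B itself had 42, 79 and 60 counts, or 1.59 ± 0.413 TPM (SD, n = 3). NAALAD2, a related peptidase, was at 3.68 ± 0.165 TPM (SD, n = 3).

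SLC45A3 (ENSG00000158715) encodes prostein, a transporter-like membrane protein of prostate epithelium whose gene is a known fusion partner of ETS genes in prostate tumours. It lies on chromosome 1 from 205657851 to 205680459 on the minus strand. Its counts of 18575, 19185 and 18319 gave 346, 326 and 335 TPM, with a mean of 336 ± 10.3 TPM (SD, n = 3). Replicate 1 was highest although replicate 2 was the largest library. Every exon base of SLC45A3 starts a word found once and none lies under another gene, so its level was the same under each definition of length. Its relatives SLC45A1 and SLC45A2 were at 2.79 ± 0.398 and 0.492 ± 0.0975 TPM (SD, n = 3 each). The neighbour ELK4, with which SLC45A3 is known to form a chimeric transcript, was at 73.3 ± 1.57 TPM, and the ratio of SLC45A3 to ELK4 was 4.58 ± 0.135 (SD, n = 3).

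STEAP1 (ENSG00000164647) and STEAP2 (ENSG00000157214) encode membrane proteins of the epithelial antigen of the prostate family. STEAP2 is a metalloreductase, and STEAP1 lacks the reductase domain of its relatives and is a target of antibody drugs and cell therapy. Both lie on the plus strand of chromosome 7, STEAP1 from 90154375 to 90164829 and STEAP2 from 90167590 to 90238137. With all annotated transcripts of each gene joined, they are 2761 bases apart. The canonical GENCODE transcript of STEAP2 starts further downstream, directly after base 90211739. STEAP1 had 7391, 8187 and 7516 counts, or 314, 316 and 313 TPM, with a mean of 314 ± 1.80 TPM (SD, n = 3). STEAP2 had 34638, 39550 and 36812 counts, or 274, 285 and 286 TPM, with a mean of 282 ± 6.56 TPM (SD, n = 3). The pair thus lay within 1.12 ± 0.0253-fold (SD, n = 3) of each other per length, with STEAP1 higher in 3 of 3 libraries, while STEAP2 with its 8715 exon bases had the higher count.

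For STEAP1, 80.1% of 1625 exon bases start a word found once, and 19.9% start one found also within STEAP1B. Its level over the first kind alone would be 393 ± 2.25 TPM (SD, n = 3), above SLC45A3 instead of below it. The limit of words read along the genome holds here too. STEAP1B had 29, 28 and 26 counts, or 0.794 ± 0.0601 TPM (SD, n = 3). For STEAP2 the share of bases with a word found once was 97.6%. STEAP3 was at 29.5 ± 1.25 TPM and STEAP4 at 0.837 ± 0.0413 TPM (SD, n = 3 each), so STEAP1 and STEAP2 were the only family members above 100 TPM in these libraries. The antisense gene STEAP2-AS1 was at 4.95 ± 1.38 TPM from 101, 110 and 60 counts. Its span, from 89882353 to 90211635, covers STEAP1 and part of STEAP2. Strand was ignored in counting, so its counts cannot be told apart from unspliced reads of those genes. The next gene past STEAP2, CFAP69, was at 6.19 ± 0.326 TPM, and ZNF804B on the other side of STEAP1 had 0 counts, which allows up to 0.0142 TPM.

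TRPM8 (ENSG00000144481), the ion channel that opens in response to cold and menthol, was first found in prostate tissue. It lies on chromosome 2 from 233917398 to 234019522 on the plus strand. Its 2342, 2692 and 2415 counts gave 20.4, 21.4 and 20.7 TPM, with a mean of 20.8 ± 0.497 TPM (SD, n = 3). TRPM8 was the only surface member below 100 TPM. Within its family it was not the highest, since TRPM4, a sodium-conducting channel opened by calcium, was at 38.4 ± 1.52 TPM and TRPM7, a channel fused to a kinase, at 29.9 ± 0.288 TPM (SD, n = 3 each). The ratio of TRPM4 to TRPM8 was 1.84 ± 0.0760 (SD, n = 3). TRPM2 followed at 16.1 ± 0.373 TPM, TRPM5 was at 1.59 ± 0.371 TPM, and TRPM1, TRPM3 and TRPM6 were each below 0.2 TPM in the mean.

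Among 16 other surface antigens of prostate or epithelial tumours, 12 were expressed and the median was 34.9 TPM. TMPRSS2, a membrane-bound protease, and ABCC4, an efflux pump, were the highest 2, at 201 ± 1.52 and 170 ± 1.90 TPM (SD, n = 3 each). OR51E2 with 5 counts and CEACAM5 with 0 counts were the lowest 2, and 0 counts allow up to 0.0198 TPM for CEACAM5. The 4 high surface members FOLH1, SLC45A3, STEAP1 and STEAP2 were each above TMPRSS2 in the mean, and TRPM8 lay below the median of that list.

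FKBP5 (ENSG00000096060) encodes FKBP51, a partner of HSP90 that tunes steroid receptor complexes and is itself induced by steroid hormones. It lies on chromosome 6 from 35573585 to 35728583 on the minus strand. It had 24794, 27232 and 25568 counts, or 161, 161 and 163 TPM, with a mean of 162 ± 1.10 TPM (SD, n = 3). In its family, FKBP8 at 287 ± 7.18, FKBP4 at 244 ± 6.21 and FKBP1A at 176 ± 0.460 TPM (SD, n = 3 each) were higher. FKBP4, which encodes FKBP52 and competes with FKBP51 for HSP90, was 1.51 ± 0.0454-fold above FKBP5 (SD, n = 3). All 13 steroid receptor chaperone genes were expressed, with a median of 191 TPM. HSP90AB1 at 2377 ± 30.8 and HSPA8 at 1204 ± 12.1 TPM were the highest 2, and BAG1 at 26.7 ± 0.757 and PPP5C at 24.7 ± 0.643 TPM (SD, n = 3 each) the lowest 2. FKBP5 lay below the median of these partners.

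PMEPA1 (ENSG00000124225) encodes a membrane protein that binds NEDD4-type ubiquitin ligases and dampens TGF-beta signalling by holding SMAD proteins. It lies on chromosome 20 from 57648392 to 57711536 on the minus strand. It had 16077, 17643 and 16334 counts, and its 3 values of 197 TPM rounded to the same number. The mean was 197 ± 0.309 TPM (SD, n = 3), with a coefficient of variation in TPM of 0.157%, the smallest of the 10 genes. Counting alone gives 1.09%, which is computed from counts and not from TPM. In CPM, PMEPA1 was at 356 ± 2.04 and FKBP5 at 551 ± 1.83 (SD, n = 3 each), so PMEPA1 was not the steadiest on that scale. Of its exon bases 6.10% lie under NKILA, a long non-coding RNA on the opposite strand with 695, 730 and 687 counts. Reads there were counted for neither gene, and over the other bases PMEPA1 would be at 210 ± 0.329 TPM (SD, n = 3). LDLRAD4, the closest relative of PMEPA1, was at 0.152 ± 0.0185 TPM (SD, n = 3).

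Of 14 genes whose products work with PMEPA1 (TGF-beta receptors, SMADs and NEDD4-type ligases), 13 were expressed, with a median of 15.8 TPM. The ligase NEDD4L was the highest, at 92.6 ± 2.47 TPM (SD, n = 3), so every gene of that list was below PMEPA1. The lowest 2 were the ligand TGFB1 at 2.37 ± 0.0642 TPM and the type II receptor TGFBR2 at 0.0899 ± 0.0382 TPM (SD, n = 3 each), the latter from 9, 6 and 4 counts. TGFBR1, the type I receptor, was at 15.7 ± 0.259 TPM (SD, n = 3). Among 26 other androgen-response genes 25 were expressed, with a median of 98.3 TPM, and both FKBP5 and PMEPA1 were above that median. KLK3 was the highest of that list, and PTGER4 at 7.56 ± 0.699 and HPGD at 0.903 ± 0.0726 TPM (SD, n = 3 each) the lowest 2.

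AMACR (ENSG00000242110) encodes the racemase that lets branched-chain fatty acids and bile acid intermediates enter beta-oxidation, and its protein is a tissue stain for prostate cancer. It lies on chromosome 5 from 33986178 to 34008108 on the minus strand. It had 474, 557 and 452 counts, or 6.76, 7.23 and 6.32 TPM, with a mean of 6.77 ± 0.454 TPM (SD, n = 3). Only ACP3 was lower among the 10 genes.

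The count of AMACR is limited by annotation. Of its 4838 exon bases, 2660 (55.0%) lie also under C1QTNF3-AMACR, a readthrough gene of the same strand, and 475 (9.82%) under the processed pseudogene ENSG00000250767. A read over such bases was ambiguous and was counted for neither gene. C1QTNF3-AMACR was left with 18, 24 and 16 counts and the pseudogene with 10, 20 and 11. Only 1703 bases of AMACR are free, of which 996 are the downstream end of the last exon block and 336 the first exon. If every read was counted on those bases alone, AMACR was at 19.2 ± 1.29 TPM (SD, n = 3), which is 2.84 times the value above. Reads that reached from these bases into shared ones were dropped as well, which this length does not allow for. C1QTNF3, the gene upstream, was at 1.55 ± 0.0826 TPM (SD, n = 3).

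**Figure D2:**
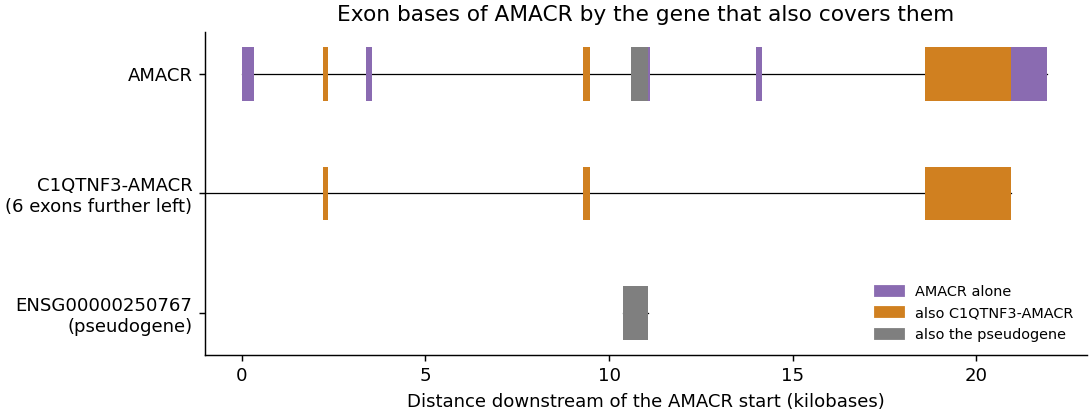
Exon bases of AMACR by distance from its start, in kilobases, coloured by the gene that also covers them. The orange blocks, shared with the readthrough gene C1QTNF3-AMACR, hold 2660 of 4838 bases, the grey block shared with a pseudogene holds 475, and the purple blocks of AMACR alone hold 1703.

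Of 16 genes of peroxisomal branched-chain oxidation, 15 were expressed, with a median of 27.1 TPM. HSD17B4, the bifunctional enzyme downstream of AMACR, was the highest at 78.3 ± 1.43 TPM (SD, n = 3). EHHADH at 5.43 ± 0.344 TPM (SD, n = 3) and ABCD2, with 6 counts, were the lowest 2. The ratio of HSD17B4 to AMACR was 11.6 ± 0.776 (SD, n = 3) with the deposited length of AMACR. AMACR stood below the median of that list under both definitions of its length. Reads partly over shared bases were lost under both, so its place against that median is not settled.

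In the order of mean TPM, FOLH1, SLC45A3, STEAP1, STEAP2, PMEPA1, FKBP5, TRPM8, MSMB, AMACR and ACP3, all 9 neighbouring pairs were separated, in that the lowest library of the higher gene lay above the highest library of the lower one. The closest pairs were SLC45A3 with STEAP1, 326 against 316 TPM at the nearest libraries, and TRPM8 with MSMB, 20.4 against 19.2 TPM. Some of these places depend on the length that was used. With bases free of other genes, AMACR moved above MSMB and their ranges overlapped. With bases that start a word found once, STEAP1 moved above SLC45A3. The split between 6 higher and 4 lower genes was the same under each of these lengths. All of them rest on the exons of all annotated transcripts, and lengths of single transcripts were not tried. No length was shortened for fragment size, which would weigh most on MSMB with its 492 exon bases. The place of MSMB against TRPM8 under such a length was not tested.

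**Figure D3:**
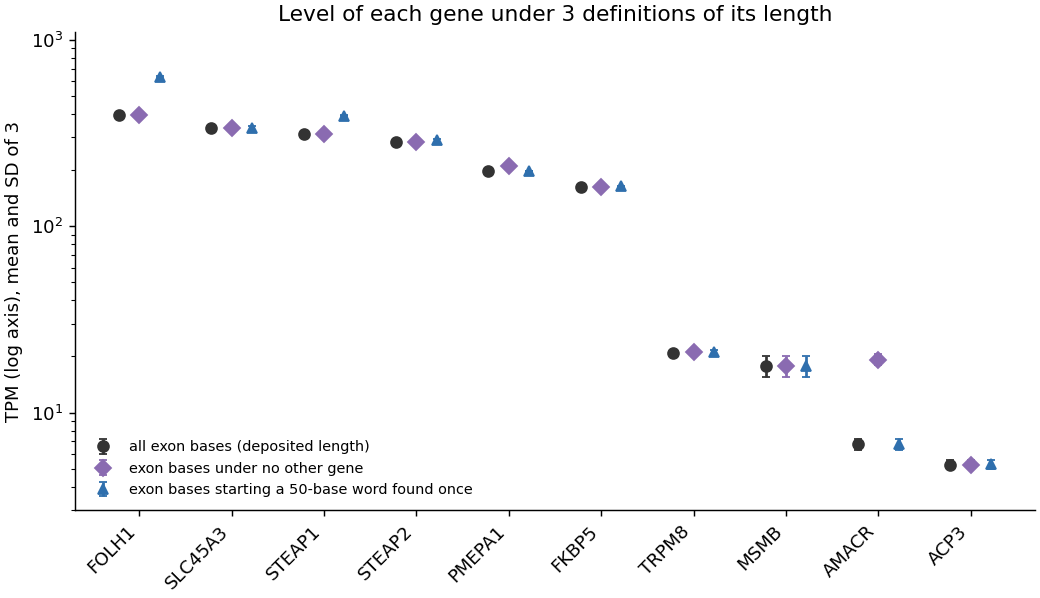
Mean and SD over the 3 libraries of each gene's TPM (log axis) under 3 definitions of its length. AMACR rises from 6.77 to 19.2 TPM when bases under other genes are left out, FOLH1 from 397 to 635 and STEAP1 from 314 to 393 TPM when repeated words are left out, and the other 7 genes move by less than 1.1-fold.

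The 10 genes summed to 1737, 1731 and 1747 TPM, a mean of 1738 ± 7.97 TPM (SD, n = 3), and took 0.282% ± 0.000581 of the counts (SD, n = 3). The 6 higher genes held 97.1% ± 0.0877 of that sum (SD, n = 3). With the deposited lengths, the 10 genes together were below KLK3 alone. With words found once their sum was 2065 TPM, a length under which KLK3 was not computed. KLK2, at 321 ± 1.503 TPM (SD, n = 3), lay between SLC45A3 and STEAP1, and TMPRSS2 lay between STEAP2 and PMEPA1.

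**Figure D4:**
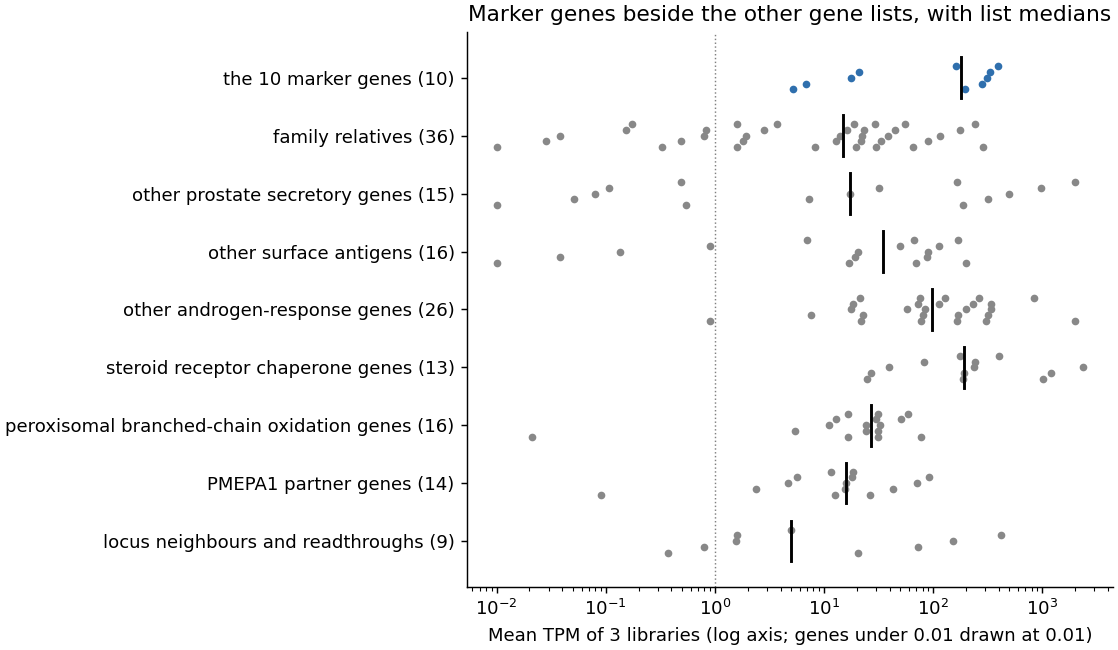
Mean TPM of the 10 genes (blue) and of genes in 8 other lists (grey) on a log axis, with list sizes in brackets, black bars for medians and a dotted line at 1 TPM. The median of the 10 genes, 179 TPM, lies close to that of the steroid receptor chaperone genes, 191 TPM, and to the right of the other medians.

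To see whether the 3 libraries differed, each gene's counts were compared with the library sizes by a chi-square test, halved because both mates of a pair were counted. Of the 10 genes, 1 passed an adjusted p of 0.05, beside 0.792% of all 22229 genes tested. This gene was SLC45A3, with an adjusted p of 0.00780 in the chi-square test. The test sets the spread between libraries against counting error alone, and PCR copies were not marked, so a call shows spread beyond counting error and not its source. The SLC45A3 count was 3.75% above the expected share in replicate 1, at -2.88% from that share in replicate 2 and at -0.556% in replicate 3. The call was lost without replicate 1 (chi-square test, adjusted p = 0.694) and without replicate 2 (chi-square test, adjusted p = 0.158). Without replicate 3 it held, at an adjusted p of 0.0204 in the chi-square test. STEAP2 had an adjusted p of 0.0935 in the same chi-square test, with its replicate 1 at -2.26% from the expected share and the other two replicates above it. The remaining 8 genes had adjusted p-values between 0.748 and 0.967 in the chi-square test. With the chi-square left whole, 2 of the 10 genes passed, SLC45A3 and STEAP2, beside 17.3% of all genes. Per gene, MSMB and AMACR had the widest deviations, from -14.3% to 8.91% and from -7.22% to 6.63%, without passing, at 394 and 1483 counts in all.

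**Figure D5:**
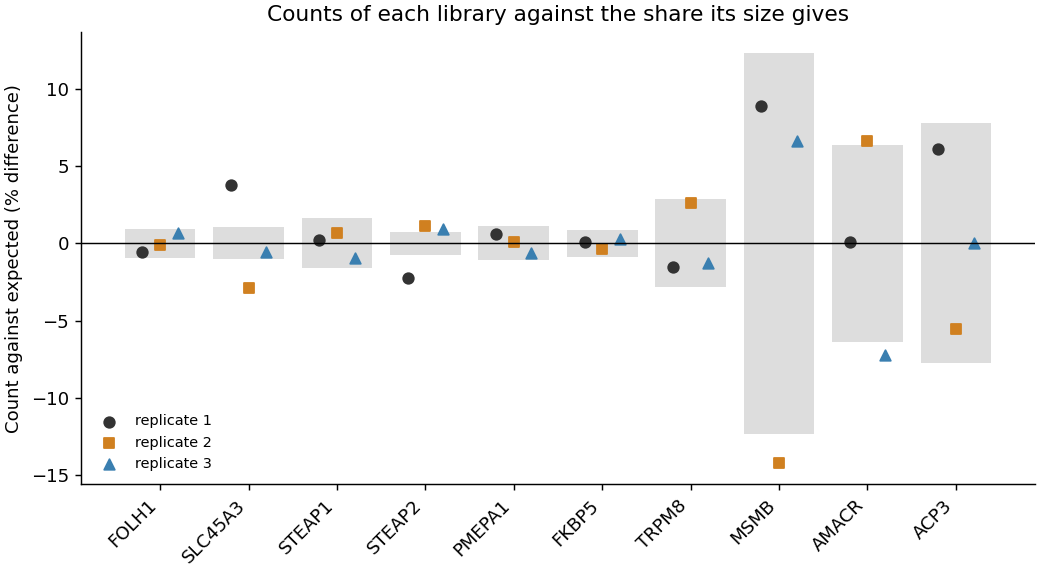
Count of each gene in each library as a percent difference from the share that the library's size gives. Points are the 3 replicates and grey bands are 1 SD of counting error either way for paired mates. SLC45A3 spans 3.75% to -2.88%, outside its band, and MSMB spans 8.91% to -14.3% around a band of 12.3%.

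Neighbouring genes ranged from 0 counts to above 200 TPM. The nearest protein-coding gene to MSMB was NCOA4, a ferritin receptor and nuclear receptor coactivator 2593 bases away, at 153 ± 0.949 TPM (SD, n = 3) and so above MSMB. On either side of ACP3, CPNE4 was at 0.101 ± 0.0430 and DNAJC13 at 37.2 ± 0.332 TPM. Beside FOLH1, TRIM64C had 2 counts and OR4C13 had 0, which allows up to 0.0646 TPM. Beside TRPM8, HJURP was at 62.7 ± 2.68 TPM and SPP2 had 0 counts. PMEPA1 lay between ZBP1 and C20orf85, both with 0 counts, which allow up to 0.0123 and 0.0828 TPM. FKBP5 lay between TULP1 at 3.40 ± 0.246 and ARMC12 at 6.52 ± 0.294 TPM, and NUCKS1 beside SLC45A3 was at 219 ± 4.87 TPM (SD, n = 3 each).

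The sequence before the start of transcription was compared for the 8 genes that matched by symbol in the RefSeq promoter table (GRCh38.p14), over the 250 bases upstream of the start that coincides with the canonical GENCODE transcript. MSMB and FOLH1 had no entry. Part of some windows lay under annotated exons of any gene, 200 bases for STEAP2, 110 for PMEPA1 and 54 for AMACR. For ACP3, FKBP5 and STEAP1 it was 38, 27 and 13 bases. CpG dinucleotides numbered 33 for PMEPA1, 29 for FKBP5, 21 for STEAP1, 21 for STEAP2, 19 for SLC45A3 and 18 for AMACR, and 3 for TRPM8 and 2 for ACP3. At least 18 were present in 36.8% of all 35116 promoters and at most 3 in 29.3%, both marks being set after the values were seen. At these starts, the 5 matched genes above 100 TPM and AMACR were thus on the CpG-rich side. TRPM8 and ACP3 were on the poor side. The shares cover all entries, other starts of a gene included. Other starts of the same genes had 3 CpG in FKBP5, 2 in STEAP2, 6, 9 and 14 in PMEPA1, and 1 to 4 in TRPM8. Which start is used in C4-2B cells is not shown by counts per gene.

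Short motifs were searched on both strands of these windows. The TATA box, searched as TATAAA, occurs in 10.7% of all promoters and was present in TRPM8 only among the 8. The GC box, searched as GGGCGG, occurs in 42.6% and was present in SLC45A3, FKBP5, PMEPA1 and STEAP2. The CCAAT box occurs in 32.01% and was present in FKBP5, PMEPA1 and AMACR. One side of the palindromic steroid receptor element, searched as AGAACA, occurs in 12.4% and was present in none of the 8 windows. Over all 18 entries of these genes, other starts included as in the shares, AGAACA was in 2, of TRPM8 and PMEPA1. TATAAA was in 2, of TRPM8 and STEAP2, GGGCGG in 5 and CCAAT in 7. SLC45A3 (chr1:205680510-205680759, minus strand, 69.2% G or C) and TRPM8 (chr2:233917123-233917372, plus strand, 40% G or C) are printed as a CpG-rich and a CpG-poor example that cover no annotated exon, with motifs, which do not overlap each other, in capitals:
SLC45A3 promoter: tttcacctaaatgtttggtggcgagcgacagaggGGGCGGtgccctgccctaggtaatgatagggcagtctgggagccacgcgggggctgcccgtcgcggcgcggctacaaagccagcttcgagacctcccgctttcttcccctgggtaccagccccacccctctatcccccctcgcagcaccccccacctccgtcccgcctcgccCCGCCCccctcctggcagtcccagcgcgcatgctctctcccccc
TRPM8 promoter: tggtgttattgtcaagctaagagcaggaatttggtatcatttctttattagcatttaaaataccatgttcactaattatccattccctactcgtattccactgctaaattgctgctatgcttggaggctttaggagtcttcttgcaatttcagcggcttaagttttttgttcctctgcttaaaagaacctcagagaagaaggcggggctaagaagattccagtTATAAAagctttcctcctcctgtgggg
A match is a description of letters, and no match says only that these letters are not in the window.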

How the data were processed

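RNA-seq of 3 C4-2B libraries was analysed. Per the labels, total RNA was depleted of ribosomal RNA and made into directional libraries, and the reads were trimmed with Trim Galore and aligned with STAR 2.7.0f to GRCh38. The deposited files hold raw counts per gene, which the authors took with featureCounts 1.6.3 and Ensembl release 90. Its command set the annotation, the output and 3 threads, so strand was ignored, mates were counted separately, and reads over several genes or aligned to several places were dropped. The deposited exon length of each gene is another value of the same files.

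From these counts, TPM was computed with the deposited length over all 58302 genes, of which 57532 matched a symbol. Gene types came from GENCODE release 44. Words of 50 bases were counted on both strands of GRCh38. They were read along the genome and not along spliced transcripts. Paralog exons were aligned with Biopython 1.88. Libraries were compared by a chi-square goodness of fit to library sizes scaled by TMM (2 degrees of freedom, divided by 2, at least 30 counts, Benjamini-Hochberg over all genes tested), which compares libraries, not conditions. Of 22229 genes, 2503 had an unadjusted p under 0.05 in this chi-square test. The test for counts between groups needs a second group and was not run. The chi-square was tested on simulated data that held counting error alone, so this does not show how it behaves on these libraries. Statistics used Python 3.11.15 with scipy 1.17.1.

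Library totals were 44992971, 49569026 and 46232076 counts. Groups came from the sample titles. The 10 genes and the other lists were chosen by name, by a rule that uses no measured value, but with earlier results of these data known. The text names all 10 genes, the highest 2 and lowest 2 of each other list, relatives and neighbours of the 10 genes, and KLK3, KLK2 and TMPRSS2 as a scale. Other genes of the lists were named after their values were seen, and some that the rule covers are not reported here. Alternatives were other denominators, lengths, scalings, filters and thresholds, and leaving out each library.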

Additional observations from a re-analysis of the deposited data

How the results depend on the processing

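No paired analysis was possible because only the C4-2B group was analysed here, so no other group shared its replicate numbers. Other denominators cannot change the order of genes within a library, but CPM, which does not divide by length, did change it. In CPM the 6 higher genes ran STEAP2 (788), FKBP5 (551), FOLH1 (487), SLC45A3 (399), PMEPA1 (356) and STEAP1 (164). In TPM the order of the 10 genes kept 9 separated pairs under other denominators and without any library, and 8 under each other length. Their median level, 179 TPM, was 259 TPM without the 10 genes of highest CPM and the mitochondrial genes in the denominator, 250 TPM with protein-coding genes as the denominator, 186 TPM with bases free of other genes, 181 TPM with words found once and 259.8 as CPM. Their sum, 1738 TPM, became 2515, 2422, 1764 and 2065 TPM and 2818 CPM in the same order. Both denominators multiplied each gene alike, by 1.45 and 1.39. Without 1 library, the median stayed between 179.1 and 179.5 TPM and the sum between 1734 and 1742 TPM. With the chi-square left whole, 2 of the 10 genes and 3835 of all genes differed between libraries, and without 1 library 0 to 1 of the 10 genes and 38 to 223 of all genes, against 176 with all 3. All 10 genes reached 1 CPM and 0.5 TPM in every library, and 9 reached 5 TPM, as did 11988 of all genes, against 19119 at 1 TPM. ACP3 is the exception, at 4.94 TPM in replicate 2. Other size factors and count minimums left the call of SLC45A3 in place. Depth limits MSMB, AMACR and ACP3, the genes with the fewest counts.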
